A study of Mus musculus with 71 samples.

Results

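The response of the C57BL/6J mouse brain to 6 h of sleep deprivation that ended at ZT6, 6 h after light onset, was measured across all probe sets of an Affymetrix mouse expression array other than the control probe sets. The comparison set 3 arrays of sleep-deprived mice against 3 arrays of control mice, 6 of the 71 arrays of the study, which covered C57BL/6J and 2 other inbred strains, DBA/2J and AKR/J, at 4 times of sacrifice. Both groups were male C57BL/6J mice aged 12 to 13 weeks, an inbred strain for which the labels name no transgene or mutation. The sleep-deprived mice were kept awake from light onset (ZT0) until sacrifice at ZT6, and the controls stayed undisturbed in the home cage and were killed at the same time. Every array carried whole-brain RNA pooled in equal amounts from 3 mice, so the 9 mice of a group gave 3 pools, and the spread behind each p-value is that between pools. Values are log2 expression levels, and the number of arrays limits their precision.

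Sleep loss is followed in the rodent brain by transcription of immediate early genes, which neurons switch on within minutes of synaptic activity and which encode transcription factors, synaptic regulators and phosphatases that feed back on the kinases that induced them. Prolonged wakefulness is also known to engage protein chaperones of the cytosol and of the endoplasmic reticulum (ER), the compartment where secreted and membrane proteins fold. Core clock genes, which drive daily rhythms of transcription, respond to both the time of day and the sleep-wake history. In the light phase, when mice mostly sleep, home-cage controls at ZT6 have had a period of sleep that the deprived mice have not.

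The control transcripts added to each sample before labelling separated the arrays. The poly-A controls are bacterial transcripts that pass through the labelling reaction with the sample. Each control probe set was set against its median over all arrays, and the deviations were averaged within an array. On the log2 scale the poly-A controls lay between 0.440 and 0.608 below the median on 6 of the 71 arrays, and between -0.128 and 0.323 around it on the other 65. On the same 6 arrays the hybridisation controls, added after labelling, lay 0.130 to 0.205 above the median, against -0.181 to 0.149 on the others. Arrays 1 and 3 of the sleep-deprived group belonged to the 6 (poly-A controls at -0.487 and -0.440), and array 2 of that group (0.055) and the 3 controls (0.081, -0.088 and -0.031) did not. A term for these 6 arrays, which also held 1 array each of AKR/J controls at ZT0 and ZT6 and of C57BL/6J controls and sleep-deprived mice at ZT0, was itself past the threshold at 12874 of 45037 probe sets. Results are therefore given with all arrays, with this spike-in term, and without the 6 arrays, which leaves sleep-deprived array 2 against 3 controls, with the lone array assumed to vary like the arrays of the other groups. The labels do not say what the 6 arrays share. They also stood apart on Gapdh, a housekeeping gene read near both ends of its transcript as a sign of RNA quality: the 3' minus 5' difference was -0.121 to -0.042 on the 6 arrays and -0.278 to -0.155 on the other 65. In the compared groups it was -0.070, -0.228 and -0.104 in the sleep-deprived arrays and -0.189, -0.155 and -0.218 in the controls. The same difference for Actb, another housekeeping gene, did not separate the 6 arrays, at 0.689 to 0.807 against 0.582 to 0.916 on the other 65. In the compared groups the Actb difference was 0.763, 0.637 and 0.689 in the sleep-deprived arrays and 0.625, 0.767 and 0.616 in the controls. The part of RNA quality in the results was not tested.

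The tissue label held. Snap25, a neuronal vesicle fusion protein, was at 13.42 to 13.59 in the sleep-deprived arrays and at 13.42 to 13.51 in the controls, and the summed level of 10 neuronal markers was 15.11 to 15.20 in the sleep-deprived arrays and 15.13 to 15.19 in the controls. Pituitary transcripts varied within both groups: Gh, growth hormone, was at 10.04, 12.60 and 10.48 in the sleep-deprived arrays and at 11.77, 11.97 and 13.22 in the controls, and none of 7 pituitary markers passed the test.

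With all arrays, 3364 of 45037 probe sets (7.47%) differed between sleep-deprived and control C57BL/6J brains at ZT6 at an adjusted p under 0.05 (limma, Benjamini-Hochberg over all probe sets). Of these 1234 (2.74% of all tested) were higher and 2130 (4.73%) lower after sleep deprivation, representing 2448 named genes. After quantile normalization 1417 were higher and 1759 lower, which moved the higher share of the calls to 44.6%, against 36.7% without it. Changes were mostly small: the median size among the called probe sets was 0.33, and 15 reached 1. The 2 groups did not overlap at 3060 of the 3364 called probe sets and at 21.6% of all probe sets. A lack of overlap given below for a called gene therefore adds no support to its call. With the spike-in term 2042 probe sets were called (4.53%), 791 higher (1.76%) and 1251 lower (2.78%). Called in both fits were 1185 (2.63%), 492 higher (1.09%) and 693 lower (1.54%), which is 35.2% of the calls with all arrays. Without the 6 arrays 237 were called (0.526%), 117 higher (0.26%) and 120 lower (0.266%), and 180 probe sets were called in all 3 fits. The count fell to 2072 without control array 2, to 1681 without control array 3, to 1322 without sleep-deprived array 1 and to 1251 without sleep-deprived array 3.

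**Figure D1:**
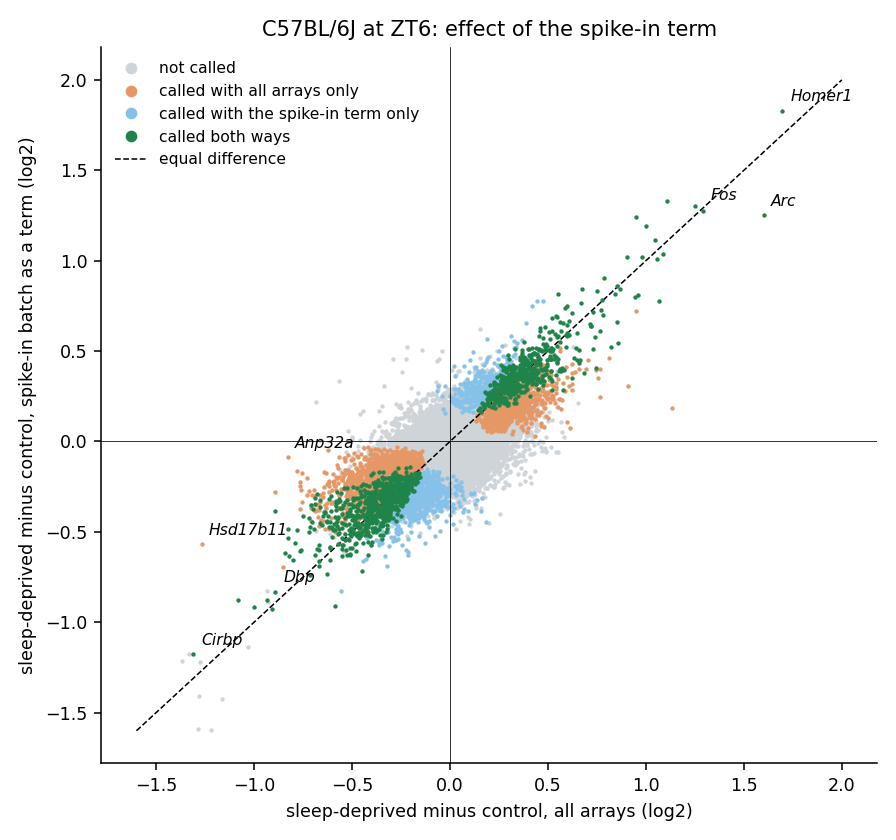
Difference between sleep-deprived and control C57BL/6J brains at ZT6 with all arrays (x axis, log2) against the same difference with the spike-in term (y axis, log2), for all 45037 probe sets tested. Green points, 1185 in all, were called both ways; Homer1, Fos and Cirbp lie near the dashed line of equal difference, whereas Anp32a (-0.83 with all arrays and -0.09 with the term) lies off it.

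The largest rise was in Homer1, which encodes a postsynaptic scaffold protein with a short, activity-induced form. On probe set 1436387_at it stood at 10.02, 10.13 and 9.91 in the sleep-deprived arrays and at 8.31, 8.34 and 8.31 in the controls. The groups were far apart and the control arrays nearly identical, and the difference was 1.70 ± 0.11 (SE), a 3.24-fold rise (limma, adjusted p = 2e-16), with 1.83 under the spike-in term and 1.81 without the 6 arrays (adjusted p = 2.46e-11). Homer1 has 5 other probe sets, of which 1425671_at rose by 0.87 (0.84 with the term), 1437363_at by 0.33 (0.36 with the term) and 1421768_a_at by 0.41 (0.30 with the term, adjusted p = 0.0642). Without the 6 arrays these were 0.89, 0.42 and 0.28, the last not called (adjusted p = 0.361). The 2 others, 1439662_at and 1425710_a_at, differed by 0.29 and 0.18 and did not pass the test (adjusted p = 0.0682 and 0.316). The files do not say which transcript form each probe set reads.

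Arc, an activity-induced protein of the postsynaptic density that drives removal of glutamate receptors from the surface, had 9.06, 8.22 and 8.62 in the sleep-deprived arrays and 6.90, 7.03 and 7.15 in the controls. All sleep-deprived arrays were above all controls, but the arrays with low poly-A controls were the highest: the rise was 1.60 ± 0.18 with all arrays (3.04-fold, adjusted p = 2.52e-08), 1.25 with the spike-in term and 1.19 without the 6 arrays. Bdnf, a secreted neurotrophin, had 8.63, 8.46 and 8.75 in the sleep-deprived arrays and 7.91, 7.78 and 7.99 in the controls, a rise of 0.72 (adjusted p = 2.13e-06; 0.64 with the term). Inhba, a subunit of the secreted factor activin, rose by 0.63 (0.46 with the term). Bdnf stayed called without the 6 arrays (0.57, adjusted p = 0.0444) and Inhba did not (0.38, adjusted p = 0.282). Ptgs2, the inducible cyclooxygenase of prostaglandin synthesis, rose on both its probe sets. On 1417262_at it had 6.48, 6.15 and 6.22 in the sleep-deprived arrays and 5.21, 5.46 and 5.47 in the controls, a rise of 0.90 (adjusted p = 0.000631; 1.02 with the term; 0.77 without the 6 arrays, adjusted p = 0.149), and on 1417263_at the rise was 0.60 (0.75 with the term; 0.75 without the 6 arrays, adjusted p = 0.101).

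Of 20 activity-regulated synaptic and secreted effectors measured, 8 rose and none fell, against 2.74% and 4.73% of all probe sets, and the 12 others differed by 0.02 to 0.48 without passing the test. The list's median was 0.12, beside 0.01 for all probe sets. The spike-in term again gave 8 rises (1.76% of all probe sets were higher and 2.78% lower with it), of which 6 were called both ways, and 3 were called without the 6 arrays (0.26% and 0.266% of all). These shares of all probe sets apply to each list below. Each list member is read on its gene's probe set of highest mean level, and calls were more frequent at higher levels. With all arrays, 4179 of 22518 probe sets above the median level were called when tested alone, and 1671 of 18193 with 1 probe set per gene.

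Immediate early genes that encode transcription factors rose together. Fos, a subunit of the AP-1 transcription factor, had 9.24, 9.07 and 8.91 in the sleep-deprived arrays and 7.65, 7.54 and 8.14 in the controls, with no overlap. Its rise of 1.29 ± 0.16 (2.45-fold, adjusted p = 2.82e-07) was 1.28 with the spike-in term and 1.29 without the 6 arrays (adjusted p = 0.00254). Fosl2, another Fos family member, had 8.15, 7.77 and 7.93 in the sleep-deprived arrays and 6.67, 7.06 and 6.86 in the controls, and rose by 1.09 (1.04 with the term). Nr4a3, an orphan nuclear receptor induced by activity, was nearly the same on all sleep-deprived arrays at 9.01, 9.00 and 8.99, above 8.06, 8.03 and 8.35 in the controls. The rise of Nr4a3 was 0.85 with all arrays (adjusted p = 3.26e-09) and 0.86 in both other fits.

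The related receptor Nr4a1 rose by 0.95 (0.80 with the term), and the zinc finger factors Egr2 and Egr1 rose by 1.25 and 0.86. For Egr2 the spike-in term gave a like value (1.30), whereas for Egr1 it gave 0.55: Egr1 had 11.89, 11.38 and 11.82 in the sleep-deprived arrays and 10.76, 10.84 and 10.92 in the controls, lowest in the sleep-deprived group on array 2. Fosl2, Nr4a1, Egr2 and Egr1 were called without the 6 arrays too, at 0.91, 0.83, 1.22 and 0.54. Of 25 activity-regulated transcription factors, 15 rose and none fell, and the 10 others ranged from -0.24 to 0.39. The median was 0.44. Under the spike-in term 13 rose, all of them among the 15, and 8 did without the 6 arrays.

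Negative regulators of signalling followed the same direction. Dusp1, a phosphatase that inactivates MAP kinases, had 9.51, 9.53 and 9.40 in the sleep-deprived arrays and 8.84, 8.49 and 8.78 in the controls, a rise of 0.77 (adjusted p = 6.27e-07) that was 0.78 with the spike-in term and 0.82 without the 6 arrays. Cdkn1a, the cyclin-dependent kinase inhibitor p21, had 8.43, 8.30 and 8.46 in the sleep-deprived arrays and 7.44, 7.67 and 7.53 in the controls, a rise of 0.85 (0.66 with the term). Both groups were tight in these genes and did not overlap. Dusp4, another MAP kinase phosphatase, rose by 0.78 (0.70 with the term), and Trib1, a pseudokinase that promotes protein degradation, by 0.49 (0.54 with the term). Without the 6 arrays Cdkn1a (0.75) and Trib1 (0.61) stayed called and Dusp4 did not (0.61, adjusted p = 0.0991). In all, 13 of 21 kinases, phosphatases and feedback inhibitors of this class rose and none fell, 12 of them also with the spike-in term and 5 without the 6 arrays, and the 8 not called ranged from -0.13 to 0.28.

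The promoter of Dusp1 holds a cAMP response element, the site bound by the activity-dependent factor CREB, spelled TGACGTCA and searched on both strands in the 250 bases before each gene's start. It is shown because Dusp1 was the member of these lists with the smallest adjusted p among those whose window holds the element. The sequence is RefSeq's for assembly GRCm38.p6, chr17:26508473-26508722 on the minus strand, with the element in capitals.
Dusp1: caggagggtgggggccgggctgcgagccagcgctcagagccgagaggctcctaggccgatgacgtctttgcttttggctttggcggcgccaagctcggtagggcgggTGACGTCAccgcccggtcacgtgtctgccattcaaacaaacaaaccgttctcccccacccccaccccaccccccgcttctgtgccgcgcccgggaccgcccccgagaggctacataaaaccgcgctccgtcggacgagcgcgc
Such an element was present in 361 of 14368 genes on the array with a promoter entry (2.51%), in 2 of 20 activity-regulated transcription factors with an entry, in 2 of 13 effectors and in 2 of 16 kinases, phosphatases and feedback inhibitors. Of these 6 genes, Dusp1 and Pcsk1, a prohormone convertase, rose in both fits and the 4 others were not called with all arrays. Pcsk1 was named after its values were seen. The element did not overlap another searched motif in Dusp1, although an E-box (CACGTG, the site of clock factors, in 8.74% of the genes) lies elsewhere in the window. A match to these letters is a description of the sequence and not evidence of binding.

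Chaperones of the ER formed the other large group of rises. Manf, an ER stress-induced secreted factor, had 10.41, 10.28 and 10.32 in the sleep-deprived arrays and 9.53, 9.42 and 9.54 in the controls, a rise of 0.84 ± 0.08 (adjusted p = 6.74e-11; 0.82 with the spike-in term; 0.78 without the 6 arrays, adjusted p = 3.71e-05). Hspa5, the major ER chaperone BiP, had 11.73, 11.73 and 11.58 in the sleep-deprived arrays and 10.98, 11.01 and 11.04 in the controls, and rose by 0.67 (adjusted p = 7.2e-09; 0.76 with the term; 0.72 without the 6 arrays). Neither gene's groups overlapped, as at 21.6% of all probe sets. Xbp1, a transcription factor of the unfolded protein response, had 10.90, 11.14 and 10.87 in the sleep-deprived arrays and 10.48, 10.41 and 10.45 in the controls, a rise of 0.52 (0.68 with the term). Creld2, an ER stress-inducible protein, rose by 0.56 (0.66 with the term). Both stayed called without the 6 arrays, at 0.70 and 0.65.

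Of 35 ER chaperones and stress response genes 15 rose and 1 fell, against 2.74% and 4.73% of all probe sets, with a median of 0.20. Under the spike-in term 11 rose and 1 fell, against 1.76% and 2.78% of all, 10 of the rises being called both ways, and without the 6 arrays 5 rose, against 0.26%. The 1 gene that fell with all arrays, Calu (a calcium-binding ER protein, -0.16), was not called with the term, and the fall with the term was in Ern1 (-0.28), the ER stress sensor IRE1. Calu and Ern1 fall outside the rule for named genes and were chosen after their values were seen.

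The ER stress element, CCAAT and CCACG separated by 9 bases of any kind, was present in 10 of 31 genes of the ER list with a promoter entry (32.3%), against 19 of 14368 on the array (0.132%). The list and the element are linked by design, since ER stress genes were in part recognised by it. Of the 10 genes, 4 rose in both fits (Hspa5, Creld2, Pdia6 and Dnajc3), 2 with all arrays alone, and 4 were not called. Pdia6, a protein disulfide isomerase, had 9.41, 9.50 and 9.27 in the sleep-deprived arrays and 8.95, 8.80 and 9.06 in the controls, and rose by 0.46 (0.58 with the term). Dnajc3, a cochaperone of Hspa5, had 8.75, 8.66 and 8.56 in the sleep-deprived arrays and 8.21, 8.42 and 8.13 in the controls, and rose by 0.40 (0.33 with the term). Pdia6 stayed called without the 6 arrays (0.57) and Dnajc3 did not (0.40, adjusted p = 0.0973). Pdia6, Dnajc3 and Hspe1 were chosen for display after their values were seen.

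The 250 bases before the start of these 4 genes, and of Hspe1 from the cytosolic and mitochondrial chaperones below, show where the elements lie. Sequences are RefSeq's for GRCm38.p6, all on the plus strand, at chr2:34771840-34772089, chr15:88819396-88819645, chr12:17266339-17266588, chr14:118937682-118937931 and chr1:55087898-55088147 in the order printed. Capitals mark the ER stress element in the upper 4 and, in Hspe1, 2 overlapping heat shock elements (GAA, TTC and GAA, each separated by 2 bases of any kind). Of these 2, the left one runs on the opposite strand and reads TTC, GAA and TTC as printed.
Hspa5: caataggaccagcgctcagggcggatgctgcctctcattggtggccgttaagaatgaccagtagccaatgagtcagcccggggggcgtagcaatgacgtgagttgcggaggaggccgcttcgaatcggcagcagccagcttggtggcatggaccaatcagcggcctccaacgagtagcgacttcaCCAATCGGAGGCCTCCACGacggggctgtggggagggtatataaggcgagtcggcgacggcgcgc
Creld2: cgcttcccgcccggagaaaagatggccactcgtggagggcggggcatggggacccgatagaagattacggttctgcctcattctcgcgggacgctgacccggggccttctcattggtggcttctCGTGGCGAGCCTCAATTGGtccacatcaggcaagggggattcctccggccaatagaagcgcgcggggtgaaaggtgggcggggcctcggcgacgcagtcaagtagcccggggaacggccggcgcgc
Pdia6: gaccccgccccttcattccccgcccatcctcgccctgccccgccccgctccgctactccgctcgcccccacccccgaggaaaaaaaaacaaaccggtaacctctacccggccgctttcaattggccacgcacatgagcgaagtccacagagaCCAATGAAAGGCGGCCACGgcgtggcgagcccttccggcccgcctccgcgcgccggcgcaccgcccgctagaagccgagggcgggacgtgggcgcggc
Dnajc3: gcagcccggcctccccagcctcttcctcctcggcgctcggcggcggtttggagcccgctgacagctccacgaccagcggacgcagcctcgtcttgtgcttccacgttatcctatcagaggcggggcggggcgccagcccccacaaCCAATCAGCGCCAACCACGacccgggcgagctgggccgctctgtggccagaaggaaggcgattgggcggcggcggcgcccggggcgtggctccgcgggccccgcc
Hspe1: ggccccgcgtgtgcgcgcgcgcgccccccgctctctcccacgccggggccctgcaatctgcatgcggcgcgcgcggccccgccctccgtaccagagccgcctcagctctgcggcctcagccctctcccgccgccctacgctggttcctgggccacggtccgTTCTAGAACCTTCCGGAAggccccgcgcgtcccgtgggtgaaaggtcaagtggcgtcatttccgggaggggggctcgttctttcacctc
The near edge of the ER stress element lay 47 bases from the gene start in Hspa5, 108 in Creld2, 80 in Pdia6 and 87 in Dnajc3. In Creld2 it runs on the opposite strand.

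Heat shock proteins rose as well, with wider spread. Hspa1b, an inducible cytosolic Hsp70, had 8.86, 8.21 and 7.79 in the sleep-deprived arrays and 7.10, 7.30 and 7.13 in the controls on probe set 1427127_x_at, a rise of 1.11 ± 0.22 (adjusted p = 0.000744; 1.33 with the spike-in term; 1.03 without the 6 arrays, adjusted p = 0.0593). Hspb1, a small heat shock protein, rose by 1.06 on 1425964_x_at (1.01 with the term; 0.90 without the 6 arrays, adjusted p = 0.299). The groups did not overlap, although probe sets ending in _x_at can bind near-identical copies, such as Hspa1a beside Hspa1b, and these readings are uncertain for that reason. Dnajb5, a cochaperone of the Hsp40 family, had 9.31, 9.09 and 9.17 in the sleep-deprived arrays and 8.63, 8.74 and 8.68 in the controls, a rise of 0.51 (0.46 with the term). Hsph1, an Hsp110 chaperone, rose by 0.44, Cryab, alpha-B crystallin, by 0.46, and Ahsa1, an activator of Hsp90, by 0.30, with 0.38, 0.45 and 0.29 under the term. Without the 6 arrays Dnajb5 (0.41) and Ahsa1 (0.27) stayed called, and Hsph1 (0.32, adjusted p = 0.085) and Cryab (0.40, adjusted p = 0.0649) did not.

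Of the 37 genes on the list of cytosolic chaperones and their cofactors 13 rose and no gene fell, the other 24 lying between -0.13 and 0.33, and the median was 0.13. Adding the spike-in term gave 14 rises, 11 of them called both ways, and 3 rose without the 6 arrays. Hspe1, the mitochondrial cochaperonin Hsp10 kept on this list, had 10.83, 10.65 and 10.77 in the sleep-deprived arrays and 10.37, 10.51 and 10.34 in the controls, a rise of 0.34 (0.29 with the term; 0.24 without the 6 arrays, adjusted p = 0.248). The heat shock element printed above was found in 3 of 33 genes of the list with a promoter entry (9.09%), against 70 of 14368 (0.487%), and Hspe1 was the only 1 of the 3 that was called.

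Other named rises were Zmym1, a zinc finger protein (1.07; 0.78 with the spike-in term and without the 6 arrays), and the predicted gene Gm19439 (0.96; 0.81 with the term; 0.88 without the 6 arrays, adjusted p = 0.0834). All 15 of the largest rises stayed called with the spike-in term. Their groups did not overlap, which held at 3060 of the 3364 called probe sets and at 21.6% of all probe sets. The 15 were picked as the largest called differences, so the lack of overlap adds no support.

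**Figure D2:**
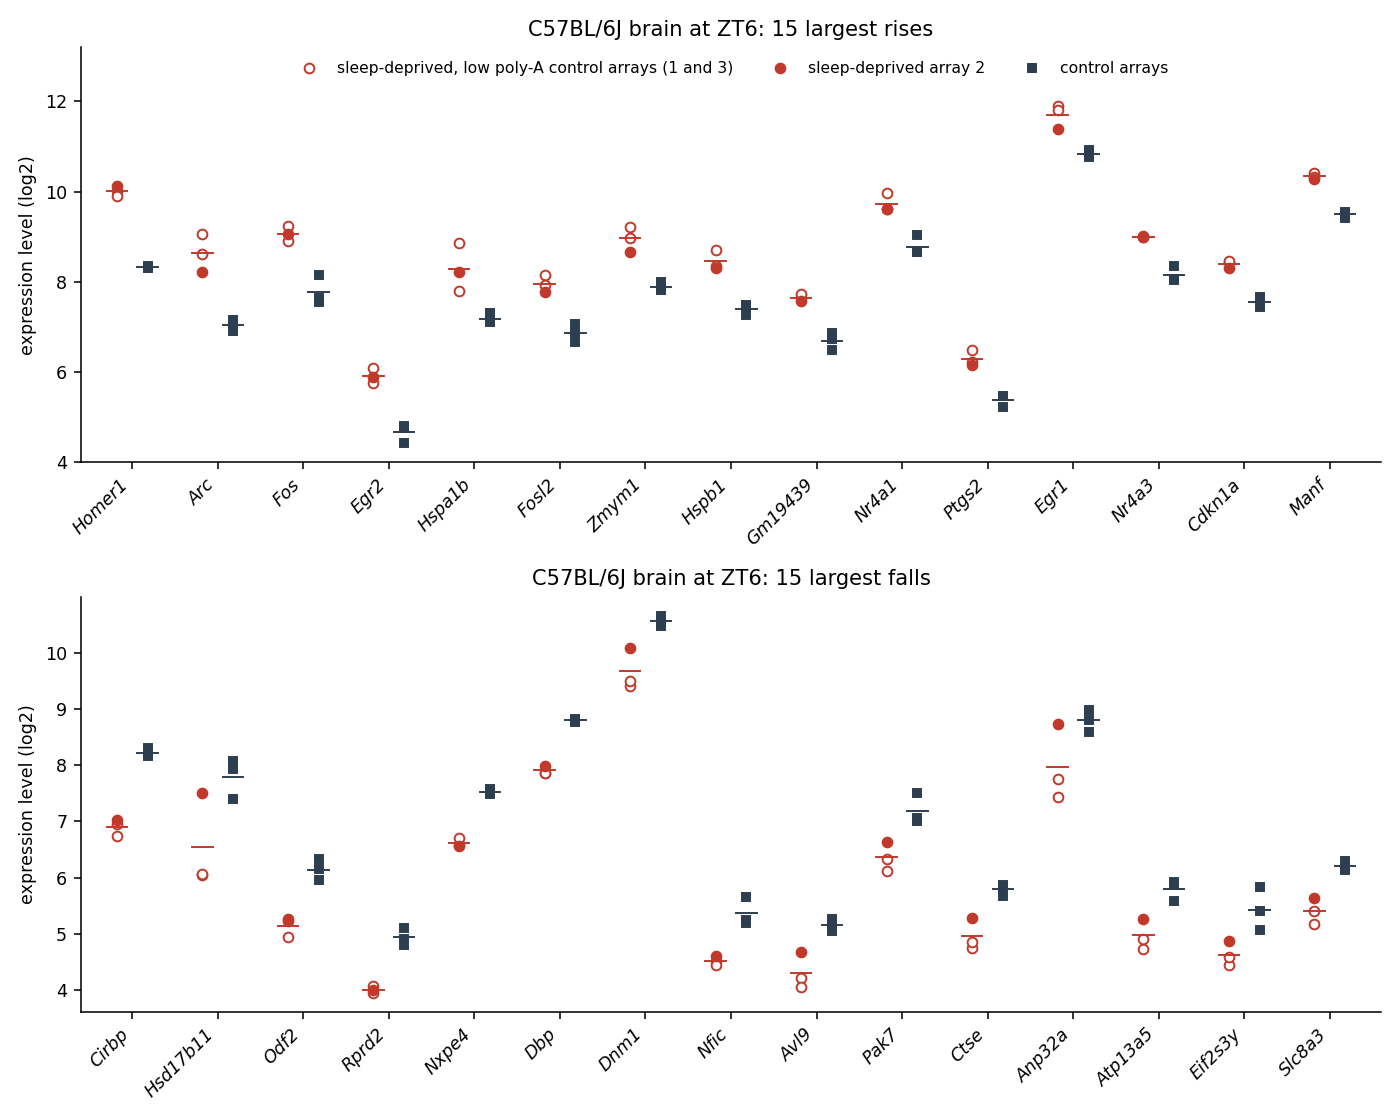
Expression level (log2) on each array for the 15 largest rises (top) and 15 largest falls (bottom) in C57BL/6J brain at ZT6, with sleep-deprived arrays as circles left of the controls as squares, and horizontal lines at the group means. Open circles are the sleep-deprived arrays 1 and 3 with low poly-A controls; the filled circle of array 2 lies with the controls for Hsd17b11 and Anp32a and with the open circles for Cirbp, Dbp and Nxpe4.

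The largest fall was in Cirbp, a cold-inducible RNA-binding protein whose transcript follows brain temperature. It stood at 6.74, 7.03 and 6.95 in the sleep-deprived arrays and at 8.31, 8.18 and 8.16 in the controls. The groups did not approach each other, and Cirbp fell by 1.31 on the log2 scale (SE 0.12), 2.48-fold (adjusted p = 2.52e-11), with differences of -1.18 under the spike-in term and -1.19 without the 6 arrays (adjusted p = 2.17e-05). Rbm3, the related cold-inducible protein on the same list, was not measured.

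Dbp, a transcription factor of the clock output, had 7.86, 7.99 and 7.87 in the sleep-deprived arrays and 8.83, 8.77 and 8.81 in the controls on probe set 1418174_at. It fell by 0.89 (adjusted p = 1.38e-09), with -0.83 under the spike-in term and -0.81 without the 6 arrays (adjusted p = 0.000506), and its other probe set, 1438211_s_at, fell by 0.55 (-0.51 without the 6 arrays, adjusted p = 0.051). Odf2, a centrosomal protein, had 4.94, 5.27 and 5.22 in the sleep-deprived arrays and 6.15, 5.95 and 6.33 in the controls, with a difference of -1.0 (-0.92 with the term). Nxpe4 had 6.58, 6.57 and 6.71 in the sleep-deprived arrays and 7.57, 7.52 and 7.49 in the controls, with a difference of -0.91 (-0.92 with the term; -0.96 without the 6 arrays, adjusted p = 0.000173). Rprd2, a protein that binds the tail of RNA polymerase II, differed by -0.93 (-0.88 with the term) on a probe set ending in _s_at, which can bind several transcripts. These 5 genes, Cirbp included, were the ones among the 15 largest falls that stayed called without the 6 arrays.

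The other 10 of the largest falls were not called without the 6 arrays. Hsd17b11, a steroid and lipid dehydrogenase, had 6.05, 7.50 and 6.07 in the sleep-deprived arrays and 7.93, 7.40 and 8.08 in the controls, so that array 2 lay among the controls. Its difference was -1.27 with all arrays (adjusted p = 0.00363), -0.57 with the spike-in term (adjusted p = 0.128) and -0.31 without the 6 arrays. Anp32a, a nuclear phosphoprotein, had 7.44, 8.73 and 7.75 in the sleep-deprived arrays and 8.81, 8.60 and 8.99 in the controls, and its difference of -0.83 (adjusted p = 0.0278) was -0.09 with the term and -0.06 without the 6 arrays. Nfic, a nuclear factor I transcription factor, had 4.51, 4.60 and 4.44 in the sleep-deprived arrays and 5.25, 5.65 and 5.20 in the controls on an _s_at probe set. Its array 2 lay with the other sleep-deprived arrays, and the difference kept its size while the call was lost: -0.85 with all arrays, -0.69 with the term (adjusted p = 0.0979) and -0.77 without the 6 arrays (adjusted p = 0.339).

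Dnm1, dynamin 1 of synaptic vesicle endocytosis, had 9.41, 10.09 and 9.50 in the sleep-deprived arrays and 10.48, 10.54 and 10.66 in the controls, and its difference of -0.89 was -0.38 with the term (adjusted p = 0.0449) and -0.46 without the 6 arrays (adjusted p = 0.174). Slc8a3, a sodium-calcium exchanger, had 5.18, 5.64 and 5.40 in the sleep-deprived arrays and 6.13, 6.30 and 6.17 in the controls, with a difference of -0.79 (-0.56 with the term). The remaining falls stayed called with the term: Pak7, a p21-activated kinase of the brain (-0.83 and -0.53 with the term), Ctse, the protease cathepsin E (-0.83 and -0.48), Atp13a5, a P-type ATPase (-0.82 and -0.63), Eif2s3y, a Y-linked translation initiation factor subunit (-0.80 and -0.65), and Avl9 (-0.84 and -0.62). Slc8a3, Pak7, Ctse, Atp13a5, Eif2s3y and Avl9 lay between -0.56 and -0.48 without the 6 arrays. In all, 12 of the 15 stayed called with the term. The groups did not overlap in 13 of the 15, beside 3060 of the 3364 called probe sets.

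Core clock and output genes moved in both directions. Per2, a repressor in the core clock loop, had 7.13, 7.03 and 7.16 in the sleep-deprived arrays and 6.62, 6.47 and 6.61 in the controls, a rise of 0.54 (adjusted p = 0.000491; 0.47 with the spike-in term). Nr1d2, a nuclear receptor that represses clock genes, had 10.70, 10.76 and 10.79 in the sleep-deprived arrays and 11.06, 10.93 and 11.10 in the controls, and fell by 0.28 (-0.23 with the term). Ciart, a repressor in the clock, fell by 0.35 (-0.38 with the term). The groups of these 3 genes did not overlap, as at 21.6% of all probe sets. Of 23 genes 1 rose and 4 fell, and with the term 3 rose and 3 fell, of which 1 rise and 3 falls were called both ways. Without the 6 arrays none was called by limma at the adjusted threshold, with Per2 at 0.46, Nr1d2 at -0.27 and Ciart at -0.50.

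Per1, named after its values were seen because its sign depends on the arrays used, had 8.31, 7.57 and 8.08 in the sleep-deprived arrays and 7.55, 7.68 and 7.56 in the controls. Its difference was 0.39 with all arrays (adjusted p = 0.125), 0.04 with the term and -0.03 without the 6 arrays, so the sleep-deprived arrays 1 and 3 alone stood above the controls.

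Genes that respond to glucocorticoids, the adrenal stress hormones, included 9 rises and no fall among 27 measured, 8 of them also with the spike-in term, and 3 rose without the 6 arrays. The 18 not called ranged from -0.16 to 0.42 with all arrays. Dusp1 and Cdkn1a, described above, are on this list too. Like Gadd45g (0.31), named after its values were seen, they also stand on the list of kinases, phosphatases and feedback inhibitors. Tsc22d3, the glucocorticoid-induced leucine zipper, had 9.36, 9.22 and 9.31 in the sleep-deprived arrays and 8.93, 8.79 and 8.81 in the controls, a rise of 0.45 (adjusted p = 0.000883; 0.43 with the term). Mt2, a metallothionein, rose by 0.46 (0.26 with the term, adjusted p = 0.176). Neither was called without the 6 arrays (0.38, adjusted p = 0.201, and 0.23, adjusted p = 0.567).

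Sterol synthesis genes leaned lower. Lss, lanosterol synthase, had 6.74, 7.0 and 6.84 in the sleep-deprived arrays and 7.43, 7.34 and 7.47 in the controls, with a difference of -0.55 (adjusted p = 0.00103; -0.40 with the spike-in term, adjusted p = 0.0264). Sqle, squalene epoxidase, had 8.99, 8.87 and 8.99 in the sleep-deprived arrays and 9.19, 9.19 and 9.24 in the controls, with a difference of -0.26 (-0.32 with the term). In both genes every sleep-deprived array was below every control, and groups did not overlap at 21.6% of all probe sets. Sc5d and Nsdhl, which act in later steps of the pathway, differed by -0.39 and -0.26, and neither was called with the term (adjusted p = 0.135 and 0.131). Of 28 cholesterol and fatty acid synthesis genes 9 fell and none rose, with a median of -0.15, 6 fell with the term, 4 were called both ways, and none was called by limma without the 6 arrays, where Lss was at -0.41, Sqle at -0.34, Sc5d at -0.24 and Nsdhl at -0.15.

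Energy metabolism and protein synthesis lists showed little that held with the spike-in term. Among 27 genes of glucose transport, glycolysis and glycogen 1 rose and 5 fell with all arrays, and none was called in both fits. Pfkm, muscle-type phosphofructokinase, had 11.08, 11.38 and 11.03 in the sleep-deprived arrays and 11.50, 11.47 and 11.60 in the controls, with a difference of -0.36 (-0.14 with the term, adjusted p = 0.0737). Of 33 respiratory chain genes 4 rose and 2 fell, and 2 of the rises held with the term, among them Cycs, cytochrome c (0.28 and 0.24 with the term). Of 29 translation initiation factors and aminoacyl-tRNA synthetases 6 fell, and 1 fall held with the term, that of Aars, alanyl-tRNA synthetase (-0.28 and -0.24 with the term). The shares called in these 3 lists were 22.2%, 18.2% and 20.7% with all arrays, against 7.47% of all probe sets. The 7.47% includes probe sets of low level, whereas 4179 of 22518 above the median level were called when tested alone. The shares of these lists were not compared at like level. With the term the respiratory chain and translation lists had 9.09% and 3.45%, against 4.53% of all probe sets. In the glycolysis list 1 gene rose and 3 fell with the term, a share above that 4.53%. These were other genes than those called with all arrays. No member of the 3 lists was called without the 6 arrays, and Pfkm was at -0.14, Cycs at 0.22 and Aars at -0.22.

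Among 27 splicing factors and Clk kinases 4 rose and 2 fell with all arrays, and 2 rises and 1 fall held with the spike-in term. Tra2a, a splicing activator, had 9.17, 8.98 and 8.93 in the sleep-deprived arrays and 8.46, 8.48 and 8.45 in the controls, a rise of 0.56 (adjusted p = 1.3e-06; 0.55 with the term; 0.52 without the 6 arrays, adjusted p = 0.00881). The kinase Clk1, which phosphorylates splicing factors, rose by 0.30 (0.31 with the term; 0.33 without the 6 arrays, adjusted p = 0.0773).

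Few synaptic receptor genes were called on the probe set kept for each list member. None of 28 glutamate receptors and scaffolds was called with all arrays, their differences lying between -0.26 and 0.19, and 3 fell with the spike-in term, among them Camk2b, a subunit of calcium/calmodulin kinase II (-0.24 with the term; -0.20 with all arrays, adjusted p = 0.0573). Of 29 potassium channel genes 3 fell with all arrays and 1 with the term, none in both. Among 15 genes of GABA receptors and the inhibitory synapse 1 rose, Gabra2, a GABA-A receptor subunit, and 1 fell, Gabrg1 (-0.19; -0.12 with the term, adjusted p = 0.284). With the term the fall was in Gabbr1, a GABA-B receptor subunit, on the probe set kept for the list (-0.25; -0.12 with all arrays, adjusted p = 0.272). On another Gabbr1 probe set, 1422051_a_at, the difference was -0.41 with all arrays (limma, adjusted p = 5.77e-05). It was -0.30 with the term (adjusted p = 0.00187) and -0.28 without the 6 arrays. Gabra2 had 7.72, 7.90 and 7.82 in the sleep-deprived arrays and 7.27, 7.41 and 7.34 in the controls, a rise of 0.48 ± 0.07 (adjusted p = 1.18e-05; 0.57 with the term; 0.56 without the 6 arrays, adjusted p = 0.00053).

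On the neuromodulator list the peptide genes Nts, Crh, Vip and Pmch (0.26; 0.30 with the spike-in term) rose in both fits. Nts, the peptide neurotensin, had 7.70, 7.67 and 7.93 in the sleep-deprived arrays and 7.19, 7.20 and 7.09 in the controls, a rise of 0.61 (adjusted p = 3.73e-08; 0.59 with the spike-in term; 0.51 without the 6 arrays). Crh, corticotropin-releasing hormone, had 7.88, 7.86 and 7.55 in the sleep-deprived arrays and 7.18, 7.19 and 6.91 in the controls, a rise of 0.67 (0.84 with the term; 0.77 without the 6 arrays). Vip, vasoactive intestinal peptide, rose by 0.23 (0.27 with the term; 0.29 without the 6 arrays). In Nts, Crh and Vip no sleep-deprived array overlapped the controls, as at 21.6% of all probe sets. Tph2, tryptophan hydroxylase of serotonin synthesis, was low in both groups, at 3.73 to 4.00 in the sleep-deprived arrays and 4.11 to 4.37 in the controls, and fell by 0.40 (-0.28 with the term, adjusted p = 0.162). Of 33 neuromodulator genes 5 rose and 2 fell, 4 rises held with the term, and 3 rose without the 6 arrays. The share called was 21.2%, against 7.47% of all probe sets, and the 2 falls are to be read against the 4.73% of all that were lower. Above the median level 4179 of 22518 probe sets were called when tested alone. The 26 genes of the list not called ranged from -1.33 to 0.39.

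**Figure D3:**
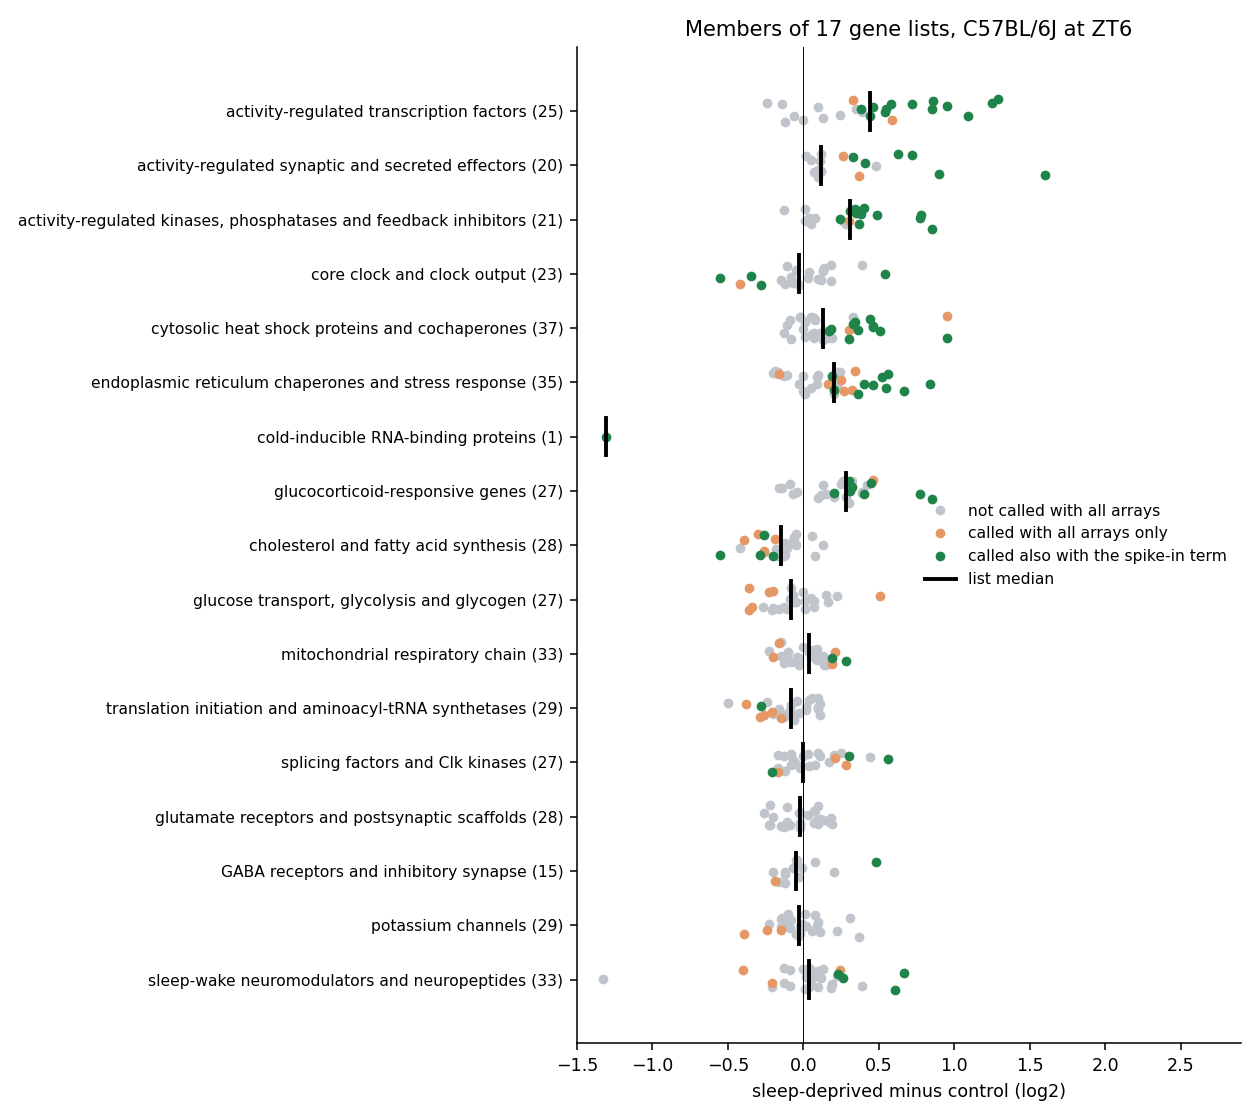
Difference between sleep-deprived and control arrays (x axis, log2) for each measured member of 17 gene lists, with the number measured in brackets and a black bar at the list median. The activity-regulated lists and the chaperone lists extend to the right, where most of the points beyond 0.5 are green, called with all arrays and with the spike-in term, whereas the orange points of glycolysis were called with all arrays only.

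Markers of cell types were also compared, since in whole tissue fewer cells of a type and less RNA per cell cannot be told apart. Of 8 oligodendrocyte markers 3 fell, Mag (-0.35), Opalin (-0.57) and Mobp (-0.20), and none rose. With the spike-in term 3 fell, Mag and Opalin among them, and without the 6 arrays none was called (Mag -0.32, adjusted p = 0.0614; Opalin -0.47, adjusted p = 0.118). Mag, a myelin adhesion protein, had 9.69, 9.71 and 9.65 in the sleep-deprived arrays and 9.97, 10.17 and 9.95 in the controls. The summed level of the oligodendrocyte list was 14.81 to 14.86 in the sleep-deprived arrays and 14.87 to 14.96 in the controls. Of 8 endothelial markers 3 fell with all arrays, Slco1a4 (-0.26), Cldn5 (-0.22) and Tek (-0.34), and none with the term, and the summed level was 10.55 to 10.61 in the sleep-deprived arrays and 10.73 to 10.79 in the controls. Of 9 cerebellar markers 3 fell, with summed levels of 13.97 to 14.02 and 14.03 to 14.06 in sleep-deprived arrays and controls, and among 10 astrocyte markers 1 rose and 1 fell. Among 7 markers of oligodendrocyte precursors 1 rose, and among 9 microglial markers 1 fell. Of the markers of other brain regions, Rgs9 of the striatum fell (-0.24; -0.10 with the term, adjusted p = 0.323), Eomes of the olfactory bulb rose (0.36; 0.24 with the term, adjusted p = 0.19) and Pmch of the hypothalamus rose (0.26; 0.30 with the term). No neuronal, choroid plexus, blood or meningeal marker was called. The part of these shifts in the gene group results was not tested.

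The response at ZT6 was set against the responses of C57BL/6J mice at the other times, ZT0, ZT12 and ZT18, to ask whether it depends on time of day. With all arrays 790 probe sets (1.75%) differed between the ZT6 response and the mean of the 3 other responses, 196 in the positive (0.435%) and 594 in the negative (1.32%) direction, or 210 and 343 after quantile normalization. With the spike-in term 189 did (0.42%; 0.111% of all in the positive and 0.309% in the negative direction), 80 probe sets were called in both fits, 22 of them positive and 58 negative, and without the 6 arrays none was called by limma, with 4610 at an unadjusted p under 0.05. The 80 comprised 69 named genes.

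Fos, Nr4a3 and Dusp1 rose more at ZT6 than the mean of their responses at ZT0, ZT12 and ZT18. Fos responded by 0.02, 1.29, 1.01 and 0.17 at ZT0, ZT6, ZT12 and ZT18, Nr4a3 by 0.19, 0.85, 0.71 and 0.16, and Dusp1 by -0.04, 0.77, 0.46 and 0.12. The responses at ZT12 were nearer to those at ZT6 than those at ZT0 and ZT18 were, and ZT6 was not tested against ZT12 alone. Fos was at 9.19 ± 0.04, 9.07 ± 0.16, 8.85 ± 0.09 and 8.97 ± 0.28 in sleep-deprived mice at ZT0, ZT6, ZT12 and ZT18, against 9.18 ± 0.06, 7.78 ± 0.32, 7.84 ± 0.09 and 8.80 ± 0.13 in controls (SD, n = 3 each). The sleep-deprived means lay close together, while the control means were lower at ZT6 and ZT12, in and at the end of the light phase, than at ZT0 and ZT18. The ZT6 response of Fos exceeded the mean of the others by 0.89 ± 0.19 (SE; limma, adjusted p = 0.0108), by 0.88 with the spike-in term (adjusted p = 0.035) and by 0.90 without the 6 arrays (adjusted p = 0.23). Nr4a3 differed in the same way by 0.50 (adjusted p = 0.0107; 0.50 with the term), and Dusp1 by 0.60 (adjusted p = 0.00691; 0.61 with the term).

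Arc responded by 0.02, 1.60, 1.32 and 0.47 at ZT0, ZT6, ZT12 and ZT18, and its difference between ZT6 and the other times was 1.00 with all arrays (adjusted p = 0.0108) and 0.65 with the spike-in term (adjusted p = 0.077). Homer1 responded at every time, by 1.19, 1.70, 2.31 and 0.38, with a difference of 0.40 (adjusted p = 0.0906; 0.54 with the term, adjusted p = 0.045). Hspa5 responded by 0.72, 0.67, 0.85 and 0.21, and its ZT6 response did not differ detectably from the mean of the others (0.07 ± 0.08, adjusted p = 0.77). Cirbp was at 6.98 ± 0.15, 6.91 ± 0.15, 7.48 ± 0.16 and 7.37 ± 0.05 in sleep-deprived mice at the 4 times, against 7.63 ± 0.13, 8.22 ± 0.08, 8.28 ± 0.08 and 7.51 ± 0.16 in controls. Its fall was deeper at ZT6 by 0.78 (difference -0.78, adjusted p = 0.00388; -0.65 with the term, adjusted p = 0.0223).

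**Figure D4:**
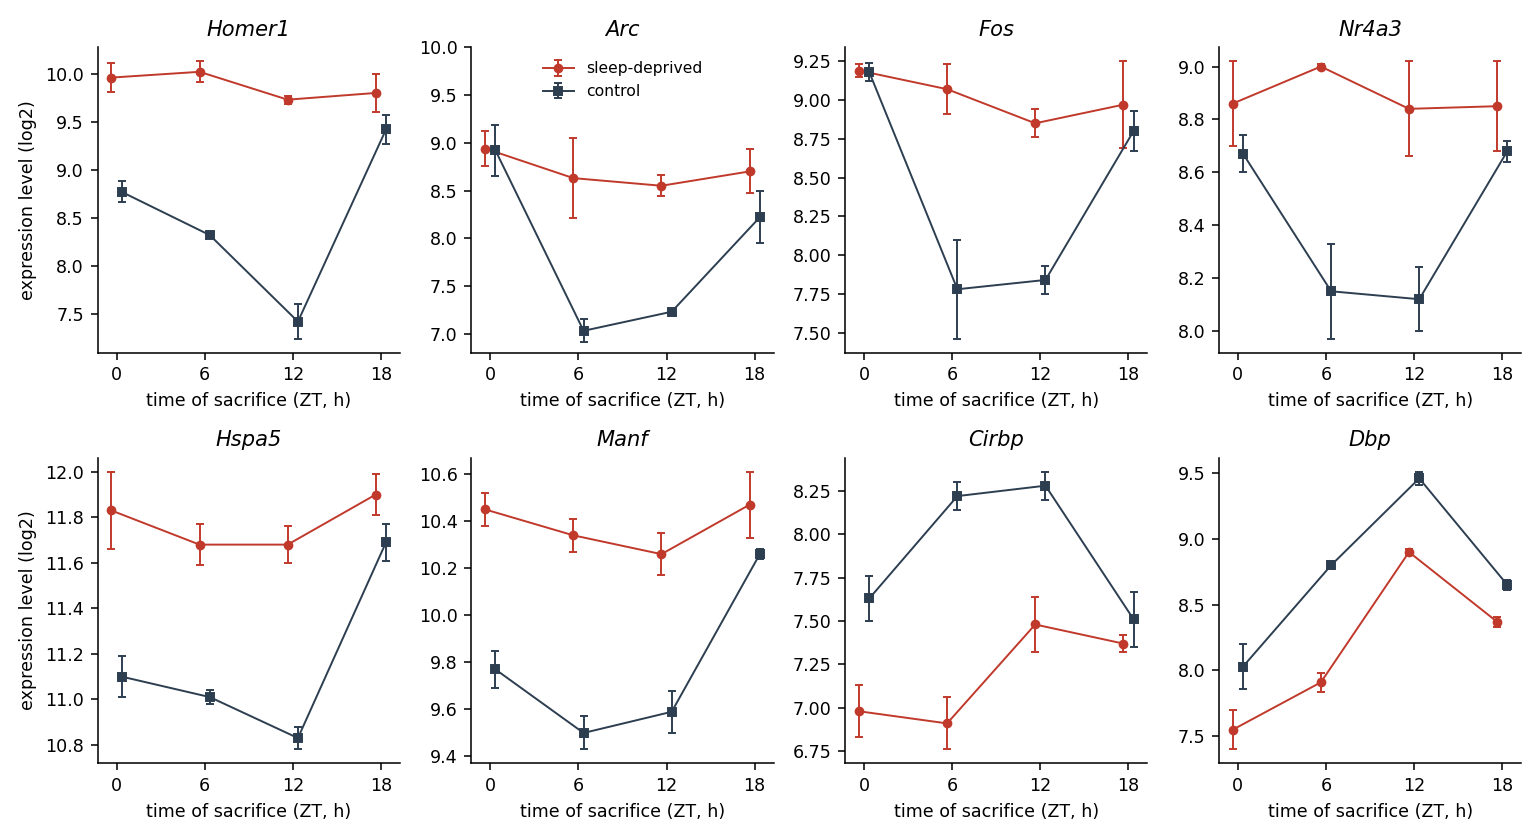
Expression level (log2, mean ± SD, n = 3 arrays each) of 8 genes in sleep-deprived (red circles) and control (dark squares) C57BL/6J mice by time of sacrifice. For Fos, Arc and Nr4a3 the sleep-deprived levels are similar at the 4 times while the controls are lowest at ZT6 and ZT12; Cirbp shows the opposite order, with controls at 8.22 at ZT6 and 8.28 at ZT12.

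Most of the 10 genes named for the time difference had a negative one (8 of 10). Gprin1, a regulator of neurite outgrowth, had 6.95, 7.21 and 6.74 in the sleep-deprived arrays and 7.64, 7.47 and 7.75 in the controls at ZT6, a difference of -0.65, against 0.00, 0.11 and 0.01 at ZT0, ZT12 and ZT18. The difference between times was -0.69 ± 0.12 (adjusted p = 0.00388; -0.50 with the spike-in term, adjusted p = 0.0223). Clcn6, a chloride transporter of late endosomes, differed by -0.69 (-0.45 with the term), Gabbr1 by -0.44 on 1422051_a_at (-0.34 with the term), and B4gat1, a glucuronyltransferase, by -0.38 (-0.27 with the term). On Gprin1 and Clcn6 the arrays with low poly-A controls were the lowest of the sleep-deprived group. Tmem107, a protein of the cilium, had 6.91, 7.02 and 7.06 in the sleep-deprived arrays and 6.34, 6.54 and 6.57 in the controls, and its response of 0.51 exceeded that at the other times by 0.48 (0.42 with the term). All 10 genes named for the time difference stayed called with the term and none without the 6 arrays.

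The ZT6 response of C57BL/6J was set against the mean ZT6 response of AKR/J and DBA/2J, each measured as 3 sleep-deprived against 3 control arrays, to ask whether it depends on strain. This comparison and the one between times share the 6 C57BL/6J arrays at ZT6. With all arrays 1199 probe sets (2.66%) differed, 350 in the positive (0.777%) and 849 in the negative (1.89%) direction, or 398 and 578 after quantile normalization. With the spike-in term 71 did (0.158%; 0.0333% of all in the positive and 0.124% in the negative direction), 32 were called in both fits, 9 of them positive and 23 negative, for 26 named genes, and 3 were called without the 6 arrays (0.00666%; 0.00444% positive and 0.00222% negative). The 3 were in Gabra2, Msrb3 and Smco3, of which the last 2 were chosen after their values were seen.

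Gabra2 rose in C57BL/6J by 0.48 and differed by -0.04 in AKR/J and 0.02 in DBA/2J between sleep-deprived and control mice. The strain difference was 0.48 ± 0.09 (SE; adjusted p = 0.0034), 0.60 with the spike-in term (adjusted p = 0.000302) and 0.60 without the 6 arrays (adjusted p = 0.0116). Smco3 had 4.75, 5.20 and 4.65 in the sleep-deprived C57BL/6J arrays and 4.50, 4.21 and 4.29 in the controls, against differences of -0.07 in AKR/J and -0.02 in DBA/2J, a strain difference of 0.58 (0.65 with the term; 0.91 without the 6 arrays). Msrb3, a methionine sulfoxide reductase, had 6.38, 5.68 and 6.03 in the sleep-deprived C57BL/6J arrays and 6.30, 6.24 and 6.27 in the controls, with 0.32 in both other strains, a strain difference of -0.56 (-0.72 with the term; -0.93 without the 6 arrays). Array 2 set the size of the Smco3 and Msrb3 values without the 6 arrays.

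Cpne8, a calcium-dependent phospholipid-binding protein, had 5.79, 5.94 and 5.55 in the sleep-deprived C57BL/6J arrays and 4.89, 5.0 and 5.09 in the controls, a rise of 0.77, against -0.21 in AKR/J and -0.14 in DBA/2J. Its strain difference was 0.95 ± 0.17 (adjusted p = 0.00273; 0.89 with the term, adjusted p = 0.0296; 1.08 without the 6 arrays, adjusted p = 0.0692). Pde3b, a cyclic nucleotide phosphodiesterase, had 7.49, 7.50 and 7.59 in the sleep-deprived arrays and 7.97, 7.93 and 7.89 in the controls, with 0.06 in both other strains, and a strain difference of -0.46 (-0.40 with the term). Kif1a, a kinesin of synaptic vesicle precursors, had 8.34, 8.85 and 8.32 in the sleep-deprived arrays and 9.18, 9.30 and 9.27 in the controls, and its strain difference was -1.01 with all arrays and -0.59 with the term. In C57BL/6J the groups of these 3 genes did not overlap, as at 21.6% of all probe sets. Of the 10 genes named for the strain difference 9 were negative, 9 stayed called with the term (Rnf157 did not), and none without the 6 arrays.

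Among the genes that moved most in C57BL/6J, no strain difference below was called in every fit. Homer1 rose by 1.70 in C57BL/6J, 2.25 in AKR/J and 2.39 in DBA/2J, a strain difference of -0.62 ± 0.14 (adjusted p = 0.00911) that was -0.46 with the spike-in term (adjusted p = 0.103) and -0.44 without the 6 arrays (adjusted p = 0.32). Arc rose by 1.60 in C57BL/6J against 1.68 and 1.65, and Fos by 1.29 against 1.57 and 1.28 in AKR/J and DBA/2J, with strain differences of -0.06 (adjusted p = 0.931) and -0.13 (adjusted p = 0.813). With the spike-in term these were -0.50 for Arc (limma, adjusted p = 0.204) and -0.15 for Fos (adjusted p = 0.801). Without the 6 arrays they were -0.60 and -0.16, so the near equality of Arc across strains depended on the arrays used. Hspa5 rose by 0.67 in C57BL/6J, 1.02 in AKR/J and 1.05 in DBA/2J, a difference of -0.36 (adjusted p = 0.017; -0.24 with the term, adjusted p = 0.16). Hspa1b rose by 1.11, against 1.20 in AKR/J and 2.35 in DBA/2J, and Cirbp fell by 1.31, with -1.08 in AKR/J and -1.43 in DBA/2J, and neither strain difference passed the test (-0.67, adjusted p = 0.169; -0.05, adjusted p = 0.905).

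**Figure D5:**
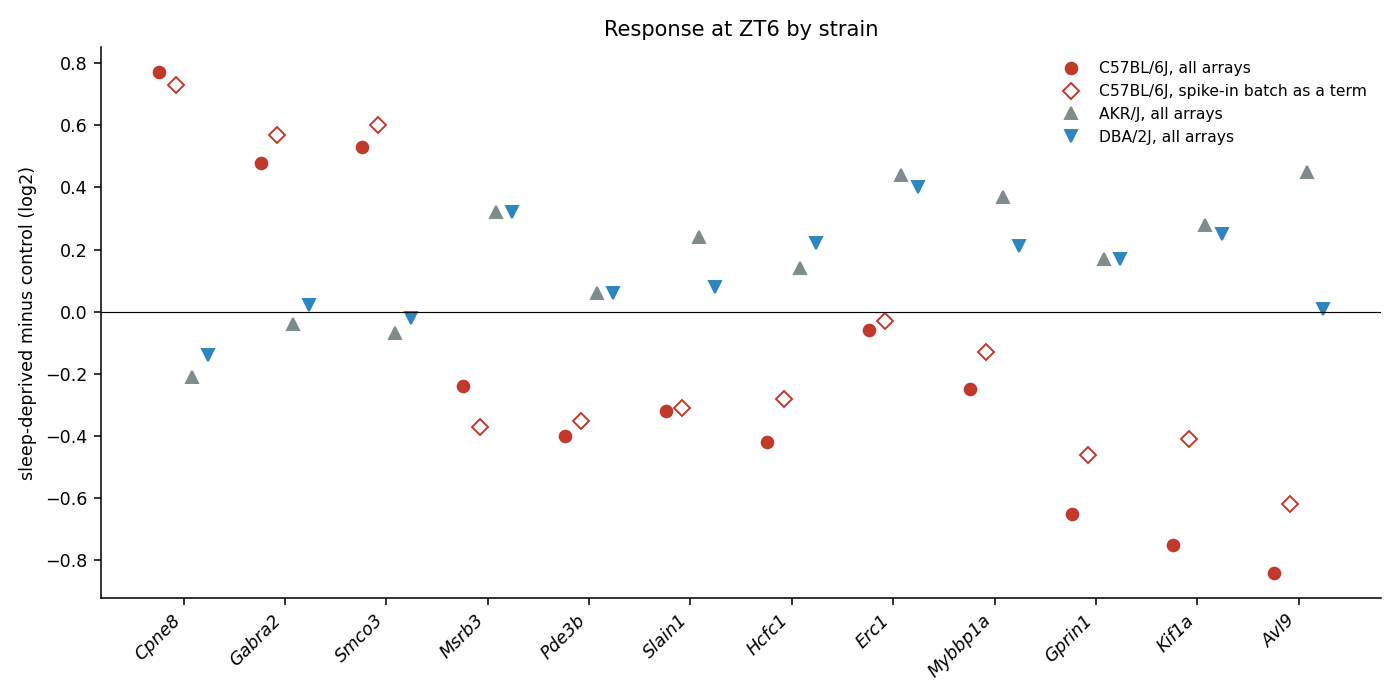
Difference between sleep-deprived and control mice at ZT6 (y axis, log2) for 12 genes in C57BL/6J with all arrays (filled red circles) and with the spike-in term (open diamonds), in AKR/J (grey triangles) and in DBA/2J (blue triangles). Gabra2, Smco3 and Cpne8 lie between 0.48 and 0.77 in C57BL/6J and between -0.21 and 0.02 in the other strains, and for Kif1a, Gprin1 and Avl9 the open diamonds lie nearer to 0 than the filled circles.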

How the data were processed

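Whole-brain RNA pooled from 3 mice per array was hybridised to Affymetrix mouse expression arrays, and 71 arrays in 24 groups were used here. The authors deposited 1 log2 level for each probe set and array, and RMA is the tool that, per the submitters' processing notes, was used; its version and settings are not given in the labels. RMA normalizes arrays together, so an array that stands apart can shift values throughout. From these values a linear model with 1 mean per group was fitted to 45037 non-control probe sets on all 71 arrays (limma 3.58.1 in R 4.3.3, empirical Bayes), and p-values were adjusted by Benjamini-Hochberg over all probe sets, with calls at an adjusted p under 0.05. The contrasts were sleep-deprived minus control C57BL/6J at ZT6, that response minus the mean response of AKR/J and DBA/2J at ZT6, and that response minus the mean C57BL/6J response at ZT0, ZT12 and ZT18. Further fits had a term for, or left out, the 6 arrays whose poly-A controls lay on average more than 0.3 below their medians over all arrays. This limit was set with the spike-in values in view.

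Named genes were the 15 largest called rises and falls, the 10 strain and 10 time differences with the smallest p-values, and list members with the smallest p-values, and others are marked where they appear. The comparison and the gene lists were chosen with earlier results of these data known. A list member is read by 1 probe set, and a probe set annotated to several genes is unnamed. The number of arrays limits the precision, the labels name no method of keeping mice awake, and the fitting code was tested on simulated data.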

Additional observations from a re-analysis of the deposited data

Results flagged for a closer look

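In 26 genes with a symbol the C57BL/6J response at ZT6 differed from the mean response of AKR/J and DBA/2J at ZT6. The criterion was an adjusted p under 0.05 in limma both with all arrays and with the spike-in term. Only the genes picked for naming are listed here, with differences of responses on the log2 scale with all arrays. The negative ones were Avl9 (-1.07), Kif1a (-1.01), Gprin1 (-0.82), Hcfc1 (-0.60), Msrb3 (-0.56), Mybbp1a (-0.54), Erc1 (-0.49), Slain1 (-0.48) and Pde3b (-0.46). The positive ones were Cpne8 (0.95), Smco3 (0.58) and Gabra2 (0.48).

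By the same criterion the ZT6 response differed from the mean of the C57BL/6J responses at the other times in 69 genes with a symbol, of which those picked for naming are listed. The ZT6 response was more positive for Fos (0.89), Cpne8 (0.75), Dusp1 (0.60), Sfi1 (0.58), Nr4a3 (0.50), Tmem107 (0.48) and Nts (0.36). It was more negative for Avl9 (-0.96), Slc8a3 (-0.87), Kif1a (-0.82), Cirbp (-0.78), Gprin1 (-0.69), Clcn6 (-0.69), Ggcx (-0.69), Aplp2 (-0.66), Gabbr1 (-0.44), Pde3b (-0.40), B4gat1 (-0.38), Slain1 (-0.34) and Mag (-0.29). Of the genes listed, Avl9, Kif1a, Gprin1, Slain1, Pde3b and Cpne8 stand in both sets, which share the 6 C57BL/6J arrays at ZT6. The arrays with low poly-A controls are 2 of the 3 sleep-deprived C57BL/6J arrays at ZT6 behind each value. The strain differences also rest on such an array among the AKR/J controls at ZT6. The time differences also rest on such arrays among the C57BL/6J controls and sleep-deprived mice at ZT0. The part of these arrays in the differences was not tested beyond the fits given.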

How the results depend on the processing

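Of 120 results for named probe sets in the comparison of sleep-deprived with control mice, 86 stayed on their side of the threshold with the spike-in term and 40 without the 6 arrays. The sign differed without the 6 arrays at 9 named probe sets, none of them called with all arrays, among them Per1 (-0.03, against 0.39 with all arrays) and Gh (0.28, against -1.28). The 3364 calls became 1671 with 1 probe set per gene, 7026 with array weights, 1737 with C57BL/6J arrays only, 374 with only the compared groups, 2042 with the spike-in term, 950 with that term and C57BL/6J arrays only, and 237 without the 6 arrays. The 1199 strain differences became 410 with 1 probe set per gene, 4111 with array weights, 259 with only the compared groups, 1950 above the median level, 71 with the spike-in term and 3 without the 6 arrays. The 790 time differences became 194, 3712, 25 with C57BL/6J arrays only (the same 25 for the compared groups), 1512 above the median level, 189 with the term and 0 without the 6 arrays. Leaving out 1 array gave 1251 to 4986 calls for sleep deprivation, 50 to 2738 for strain and 8 to 2178 for time, the lowest each time without sleep-deprived array 3 and the highest without array 2. Other arrays that moved the strain count by more than 1.5 times were AKR/J control 3 (532), C57BL/6J ZT6 controls 2 and 3 (538 and 415), sleep-deprived array 1 (334) and DBA/2J sleep-deprived array 3 (723). For time they were sleep-deprived ZT6 array 1 (90), ZT6 controls 2 and 3 (265 and 118), sleep-deprived ZT0 arrays 1, 2 and 3 (432, 454 and 1563), sleep-deprived ZT18 array 2 (491), and controls ZT0 3 (417) and ZT12 1 (491). With the replicate number as a block the counts were 3501, 1362 and 926, and same-numbered arrays did not deviate together (correlations of -0.152, -0.275 and -0.069), so the numbers were not taken as pairs. The fit with that term on C57BL/6J arrays only was chosen after seeing the data, and the cause of these shifts was not tested.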
